A study of Mus musculus with 18 samples.

Results

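Glypicans are heparan sulfate proteoglycans that are held at the outer face of the cell by a glycosylphosphatidylinositol (GPI) anchor. The mouse family has 6 members, Gpc1 to Gpc6, and these were taken by gene symbol over all 18 libraries, 6 of the 55401 genes listed. The set was chosen by the day 5 counts of Gpc3, known to be lower with Dox, so the members' Dox difference at that day is described without a test, and the Gpc3 difference between days 3 and 5 likewise.

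The libraries came from RHKI, a mouse embryonic stem cell line derived from E14Tg2a that carries an HA-tagged Rnaseh1 knock-in, which doxycycline (Dox) induces. RNase H1 cuts RNA that is paired with DNA, and the study's title concerns R-loops, the histone variant H2A.Z and lineage allocation. Cells were kept in 2i/LIF and then differentiated as gastruloids, which are aggregates of stem cells that form embryo-like germ layers. The 6 groups of 3 libraries were control and Dox before differentiation (day 0, 0 h), on day 3 (72 h) and on day 5 (120 h). Dox was given at 500 ng/ml over the 48 h that preceded differentiation; whether it was kept on afterwards is not stated. All groups carry the knock-in, and none lacks it or received Dox without it.

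Heparan sulfate chains on glypicans bind Wnt, Hedgehog, FGF and BMP ligands and change how these reach their receptors. GPC3 is known as a restraint on Hedgehog signalling, since it binds the ligand in competition with the receptor, and its loss in humans causes the Simpson-Golabi-Behmel overgrowth syndrome. NOTUM is a secreted enzyme that inactivates Wnt proteins by removing their lipid and that binds glypicans; a release of glypicans by it has been proposed and disputed. SULF enzymes remove 6-O-sulfate groups from the chains outside the cell.

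Rnaseh1 was higher with Dox at each day, by 2.43 on the log2 scale at day 0, 1.53 at day 3 and 1.54 at day 5. Total counts ran from 25748897 to 38128366 per library. One gene annotated as ribosomal RNA took 4.76% of the counts in day 0 Dox replicate 2 and 0.144 to 0.483% in the other 17 libraries. Pou5f1, a pluripotency factor, lay at 1150 to 1290 CPM (counts scaled to a common library size) in day 0 control and at 1.77 to 4.07 CPM in day 5 control. Pax6, a neural progenitor factor, lay at 252 to 269 CPM in day 5 control. Meox1, a somite factor, lay at 66.7 to 79.1 CPM there. These are bulk libraries, in which fewer cells of a type and less RNA per cell cannot be told apart.

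The glypican genes lie at 4 places in the genome (GRCm38, GENCODE M21). Gpc3 (ENSMUSG00000055653.13) spans 341.5 kb on the minus strand of chromosome X, from 52272426 to 52613950. Gpc4 (ENSMUSG00000031119.4) follows it on the same strand after a gap of 107.2 kb, from 52053021 to 52165252. Gpc5 (ENSMUSG00000022112.14) and Gpc6 (ENSMUSG00000058571.11) form a second pair on the plus strand of chromosome 14, from 115092215 to 116525179 and from 116925315 to 117976544. Gpc1 (ENSMUSG00000034220.7) lies alone on the plus strand of chromosome 1, from 92831645 to 92860779. Gpc2 (ENSMUSG00000029510.15), the shortest at 6.4 kb, lies on the minus strand of chromosome 5, from 138273655 to 138280005.

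Per transcript length, the leading glypican changed from day to day. In TPM, the authors' level scaled to transcript length and library, Gpc3 led in day 0 control at 26.3 ± 1.72 (SD, n = 3). Gpc4 at 15 ± 0.974 TPM and Gpc1 at 14.2 ± 1.94 TPM came next with ranges that overlapped, followed by Gpc2 at 11.2 ± 1.5 TPM. At day 3 Gpc1 led at 43.7 ± 1.35 TPM in control, above Gpc3 at 33.3 ± 1.06 TPM and Gpc2 at 15.9 ± 0.799 TPM. At day 5 Gpc3 led again in control at 120 ± 8.26 TPM, with Gpc1 at 64.4 ± 1.38 TPM and Gpc2 at 52.9 ± 6.89 TPM below it. With Dox at day 5 these 3 genes came close together. Gpc1 had 68.1 ± 0.955 TPM, Gpc2 66.3 ± 1.13 TPM and Gpc3 61.4 ± 7.02 TPM, and the ranges of Gpc2 and Gpc3 overlapped. Gpc6 stayed between 0.57 and 6.5 mean TPM over the 6 groups and Gpc5 did not exceed 0.297 mean TPM.

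The summed level of the family was 67.3 ± 4.5 TPM in day 0 control, 108 ± 1.23 TPM in day 3 control and 245 ± 5.17 TPM in day 5 control (n = 3 each). In the Dox groups it was 66.5 ± 8.39, 108 ± 4.2 and 204 ± 10.2 TPM. Gpc3 made up 48.9 ± 3.56% of the sum in day 5 control and 30 ± 1.9% in day 5 Dox. The share of Gpc4 was 22.3% in day 0 control, 8.79% in day 3 control and 0.645% in day 5 control.

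**Figure D1:**
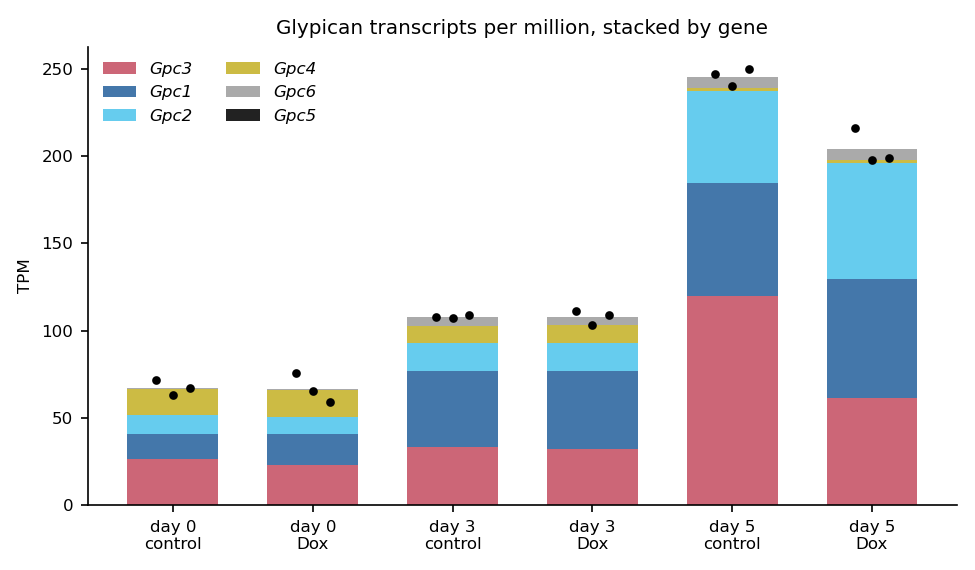
Mean TPM of the 6 glypicans in each group, stacked by gene (n = 3 libraries a group). Points are the summed TPM of single libraries. The day 5 control sum of 245 TPM and the day 5 Dox sum of 204 TPM differ mostly in the Gpc3 segment, which is 120 TPM in control and 61.4 TPM with Dox.

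Gpc3 was the member with the largest day 5 difference between Dox and control. In CPM, scaled by the TMM method, the day 5 control libraries had 143, 173 and 170. The day 5 Dox libraries had 90.8, 78 and 76.1 CPM. The lowest control library was above the highest Dox library. The mean was 1.99-fold lower with Dox, a log2 fold change of -0.99 ± 0.077 (SE). Within replicate numbers, which the labels give as batches, control exceeded Dox by 1.58-fold, 2.22-fold and 2.24-fold in replicates 1, 2 and 3. Leaving out any one day 5 library gave log2 values from -1.07 to -0.94.

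Before day 5 the Gpc3 levels of the arms were close. The day 0 control libraries had 44.8, 43.2 and 39.6 CPM and the Dox libraries 38.5, 38.6 and 36.7 CPM. These ranges did not overlap, as for 10.2% of all genes, and the difference did not pass the test (log2 -0.17 ± 0.081, adjusted p = 0.43, edgeR quasi-likelihood test). At day 3 control had 45.8, 49 and 50.7 CPM and Dox had 50.1, 45.6 and 46.5 CPM, with overlapping ranges, and the arms overlapped at day 3 for all 6 members where 11.1% of genes did not. In control the mean of Gpc3 went from 48.5 CPM at day 3 to 162 CPM at day 5, a ratio of 3.35. In the Dox arm it went from 47.4 to 81.6 CPM, a ratio of 1.72. From day 0 to day 3 in control Gpc3 rose by 0.19 ± 0.08 on the log2 scale (adjusted p = 0.04, edgeR). That small call was lost in DESeq2 (adjusted p = 0.064), in limma-voom (0.055), with RLE size factors (0.061) and without any of 4 control libraries: day 0 replicate 2 (0.057) or 3 (0.15), or day 3 replicate 2 (0.084) or 3 (0.12). With library size alone as the scaling it was 0.34, where that scaling moved the median of all genes by 0.148.

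The mean length of the Gpc3 transcripts that RSEM counted stayed between 2185 and 2205 bases in all 18 libraries. The antisense genes that overlap Gpc3, A630012P03Rik and Gm14582, had at most 2 counts in any library.

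**Figure D2:**
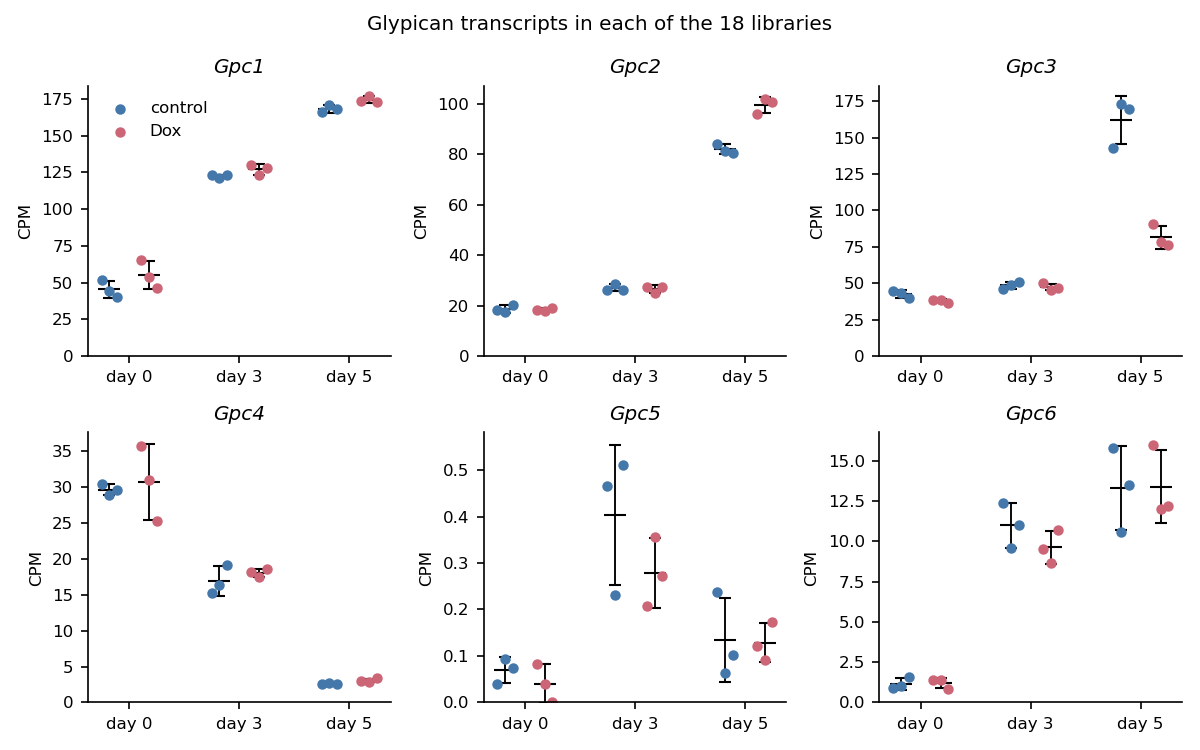
CPM of each glypican by day, 1 point per library, with control in blue and Dox in red. The black bars are the group mean ± SD (n = 3). Each panel has its own axis from 0. In the Gpc3 panel the day 5 Dox points, from 76.1 to 90.8 CPM, lie under the day 5 control points, from 143 to 173 CPM.

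Gpc2, cerebroglycan, is known from developing neurons. Its day 5 libraries had 84.3, 81.2 and 80.7 CPM in control and 95.9, 102 and 101 CPM with Dox, so it was higher with Dox where Gpc3 was lower, and its ranges did not overlap. The log2 fold change was 0.28 ± 0.059. At day 0 Gpc2 had 18.2, 17.4 and 20.3 CPM in control and 18.4, 18 and 18.9 CPM with Dox. At day 3 it had 26.1, 28.7 and 26.3 CPM in control and 27.5, 24.9 and 27.5 CPM with Dox. The ranges of the arms overlapped at both days. In control it rose 1.45-fold from day 0 to day 3 (log2 0.54, adjusted p = 5.1e-07, edgeR) and 3.03-fold from day 3 to day 5 (log2 1.6, adjusted p = 6.5e-14, edgeR). Gm43720, an annotated gene on the same strand that overlaps Gpc2, had 1.01 ± 0.179 CPM in day 5 control and 1.14 ± 0.45 CPM in day 5 Dox.

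The sequences before the starts of Gpc3 and Gpc2 are shown because these members had day 5 differences of opposite sign. They are from RefSeq (GRCm38.p6), read 5′ to 3′ on the gene's own strand, and hold no base of an annotated exon of the gene. The Gpc2 stretch, 182 bases, ends at the last base before the annotated exon. The Gpc3 stretch is its whole window of 250 bases and stops short of the annotated gene, which begins at 52613950 on this strand. Capitals mark GC boxes, which are GGGCGG on either strand (CCGCCC when read on the other), the motif that Sp-family factors bind. The Gpc3 stretch is chrX:52613975-52614224, minus strand, and the Gpc2 stretch is chr5:138280006-138280187, minus strand.
Gpc3: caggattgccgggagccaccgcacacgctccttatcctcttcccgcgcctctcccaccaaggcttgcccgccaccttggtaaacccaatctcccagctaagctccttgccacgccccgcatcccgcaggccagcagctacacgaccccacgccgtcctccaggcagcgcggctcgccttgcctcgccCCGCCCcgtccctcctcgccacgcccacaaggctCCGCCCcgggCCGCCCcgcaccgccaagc
Gpc2: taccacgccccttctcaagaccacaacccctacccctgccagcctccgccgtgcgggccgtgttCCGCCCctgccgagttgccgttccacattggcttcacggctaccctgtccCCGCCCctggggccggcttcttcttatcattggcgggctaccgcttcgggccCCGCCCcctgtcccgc

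Both stretches hold 3 GC boxes, all read as CCGCCC on the gene's strand in these letters. Of the 32851 windows of 250 bases in the table, 32.7% hold at least 1, and the share with 3 was not counted. Neither gene's window of 250 bases holds TATAAA (or TTTATA), which 12.4% of all windows do. The Gpc3 window is 71.6% G+C, above 92.7% of all windows, and the Gpc2 window is 66.4% G+C, above 85.2%. Of the Gpc2 window the printed 182 bases lie before the annotated exon, and its window values also cover the bases beyond. On the gene's strand C outnumbers G in both. The skew, (G - C)/(G + C), was -0.41 for Gpc3 and -0.28 for Gpc2, lower than all but 0.944% and 4.26% of windows. The Gpc4 window had 1 GC box, 68.4% G+C and a skew of -0.37. That window begins inside an annotated Gpc4 exon, so its values are not those of a stretch before the gene. The Gpc5 window had 1 GC box and 1 TATA box, with 51.2% G+C against a median of 52.4% over all windows. Of the 6 genes 4 were in the table, and Gpc1 and Gpc6 were not matched.

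Gpc4, a glypican known from zebrafish for its part in cell movement at gastrulation, went down over the course. Its control libraries had 30.4, 28.9 and 29.6 CPM at day 0, 15.2, 16.3 and 19.2 CPM at day 3 and 2.58, 2.66 and 2.62 CPM at day 5. In control it fell 1.75-fold from day 0 to day 3 (log2 -0.81, adjusted p = 1.3e-06, edgeR) and 6.45-fold from day 3 to day 5 (log2 -2.69, adjusted p = 9.5e-13, edgeR). The Dox libraries had 35.8, 31 and 25.3 CPM at day 0, 18.2, 17.5 and 18.6 CPM at day 3 and 3.01, 2.87 and 3.35 CPM at day 5. At day 5 every Dox library was above every control library, at a log2 fold change of 0.23 ± 0.14. Gpc4 and Gpc3 are neighbours on chromosome X, and their means moved in opposite directions from day 3 to day 5 in both arms.

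Gpc1, which is known to assist FGF signalling in the forebrain, went up at each step. Its control libraries had 51.6, 44.3 and 39.9 CPM at day 0, 123, 121 and 123 CPM at day 3 and 166, 171 and 168 CPM at day 5. It rose 2.7-fold from day 0 to day 3 (log2 1.43, adjusted p = 6.9e-11, edgeR) and 1.38-fold from day 3 to day 5 (log2 0.46, adjusted p = 0.00017, edgeR). With Dox it had 65.1, 53.6 and 46.2 CPM at day 0, 130, 123 and 128 CPM at day 3 and 174, 177 and 173 CPM at day 5. At day 0 Dox was higher than control within each replicate number, by 1.26-fold, 1.21-fold and 1.16-fold, but the groups overlapped and the difference did not pass the test (log2 0.28 ± 0.094, adjusted p = 0.19, edgeR). The adjusted p (edgeR) was 0.02 with no filter on low counts and 0.02 without day 0 Dox replicate 3, so this call depends on those choices. It did not pass with the replicate block (0.11), in DESeq2 (0.088), in limma-voom (0.22) or with day 0 fitted alone (0.96). Nor did it pass without any other single day 0 library (0.082 to 0.5). The log2 fold change at day 5 was 0.06 ± 0.089. Ankmy1, on the opposite strand over Gpc1, had group means of 0.153 to 1.21 CPM, and the strand setting of the counting is not given in the sources used here.

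Gpc6, whose loss in humans causes the short-limb disorder omodysplasia, came on between days 0 and 3. Its control libraries had 0.896, 0.997 and 1.57 CPM at day 0, 12.4, 9.58 and 11 CPM at day 3 and 15.8, 10.6 and 13.5 CPM at day 5. The rise from day 0 to day 3 was 9.51-fold (log2 3.25, adjusted p = 1.5e-10, edgeR), and the day 5 level did not differ detectably from day 3 (log2 0.27, adjusted p = 0.17, edgeR). The Dox libraries had 1.37, 1.4 and 0.839 CPM at day 0, 9.55, 8.63 and 10.7 CPM at day 3 and 16, 12 and 12.2 CPM at day 5, and the arms overlapped at each day. The mean length of its counted transcripts was 2173 to 3099 bases at day 0 and 3260 to 3376 bases at day 5.

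Gpc5 was near the limit of detection. Its control libraries had 1, 3 and 2 counts at day 0, 14, 9 and 20 counts at day 3 and 7, 2 and 4 counts at day 5. The Dox libraries had 2, 1 and 0 counts at day 0, 7, 10 and 9 counts at day 3 and 4, 3 and 6 counts at day 5. It passed the filter on low counts only through day 3, so a day 3 difference was built into its selection and its change between days is described without a test.

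Counted over the family, the Dox contrast called 0 of 6 members at day 0, where 1.04% of the 17795 tested genes were called, and 0 of 6 at day 3, where 0.0169% were. At an unadjusted p under 0.05 edgeR gave 1 member at day 0 (Gpc1) and 0 at day 3. DESeq2 and limma-voom also called 0 at both days. The test of the Dox effect at day 3 minus that at day 0 called 0 of 6 members (0.0562% of genes), with 0 at an unadjusted p under 0.05, and DESeq2 and limma-voom likewise called 0. From day 0 to day 3 in control, of the 5 members other than Gpc5, 4 were called higher (Gpc1, Gpc2, Gpc3 and Gpc6) and 1 lower (Gpc4), where 37.2% of all genes were called higher, 36.3% lower and 73.5% in either direction, so a change is the common state there. From day 3 to day 5, of the 4 members other than Gpc3 and Gpc5, 2 were called higher (Gpc1 and Gpc2) and 1 lower (Gpc4), where 31.7% of genes were called higher, 33.1% lower and 64.8% in either direction. At day 5 the control and Dox libraries did not overlap for 4 of 6 members (Gpc1, Gpc2, Gpc3 and Gpc4), which held for 26.1% of all genes, and since that contrast chose the set nothing is read from the count.

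The genes whose pattern over the 18 libraries was most like each member's are given as a description, by Pearson r of log2 CPM among 10537 genes. Libraries share their day, and so does most of the variation behind these values. For Gpc3 the nearest were Ski, a repressor of TGF-beta signalling (r = 0.976), Armc5 (0.961) and Zfp385a (0.961). Ski had a mean of 335 CPM in day 5 control and 252 CPM in day 5 Dox, but these libraries were part of how it was picked. For Gpc4 they were Sall4, a stem cell transcription factor (0.997), Etv5 (0.996) and the Polycomb gene Cbx7 (0.996). For Gpc2 they were Nova1, a neuronal splicing factor (0.996), Sept3 (0.995) and Scube1 (0.995), and for Gpc1 Kif7, a Hedgehog pathway kinesin (0.996), Pogk (0.996) and Cplx2 (0.993). For Gpc6 they were Hlcs (0.992), Gpatch2 (0.991) and Satb1 (0.991), and for Gpc5, at its low counts, Zfp369 (0.904), Bend3 (0.898) and Optn (0.896). Among the members, Gpc2 and Gpc4 had r = -0.99, Gpc3 and Gpc4 -0.92, and Gpc1 and Gpc6 0.96.

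Enzymes that build the heparan sulfate chain were not called by edgeR in the Dox contrast at any day. Of 11 linker and chain assembly genes 0 were called at day 5, with a median log2 fold change of -0.02 beside 0.003 over all genes, where 4.74% of genes were called. edgeR gave 2 of them an unadjusted p under 0.05, and DESeq2 and limma-voom called 0. Of 12 tested sulfation and epimerisation genes 0 were called at day 5, with a median of -0.15 and 2 at an unadjusted p under 0.05. limma-voom called 0 of these and DESeq2 called 1, Hs6st2 (log2 -0.27, adjusted p = 0.019). At days 0 and 3 edgeR gave 0 genes of either list an unadjusted p under 0.05. The most abundant of these were Extl3, a chain-initiating transferase (108 ± 4.85 CPM in control and 104 ± 3.4 CPM with Dox, adjusted p = 0.71, edgeR), and Hs6st1, a 6-O-sulfotransferase (159 ± 5.58 and 168 ± 9.26 CPM, adjusted p = 0.62, edgeR).

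Over the course in control, most of these enzymes were called, as were most genes. From day 0 to day 3, where 73.5% of all genes were called, 4 assembly genes rose and 5 fell, and 8 sulfation genes rose and 4 fell. Of the sulfation genes that rose, Hs6st2, Hs3st5, Hs3st3a1 and Hs3st4 had 2, 0, 0 and 8 counts in total in day 0 control. They passed the filter on low counts through other groups, so a rise from day 0 was built into their selection. From day 3 to day 5, where 64.8% of all genes were called, 6 assembly genes rose and 2 fell, and 8 sulfation genes rose and 3 fell. Hs3st3a1 and Hs3st1 each had 12 counts in total in day 3 control, before their rise to day 5. Extl1 and Hs3st6, which fell, had 14 and 19 counts in total in day 5 control. These genes too passed the filter through other groups, so their changes were built in likewise. The counts of genes that rose or fell include all of these. Hs6st2, a 6-O-sulfotransferase, went from a mean of 0.0229 CPM at day 0 to 39.2 ± 2.99 CPM at day 3, which is described without a test. Hs3st3b1, a 3-O-sulfotransferase, went from 0.52 ± 0.0676 CPM at day 3 to 31.4 ± 3.77 CPM at day 5 (adjusted p = 5.3e-14, edgeR). Extl2 rose 4.79-fold from day 0 to day 3, to 16.4 ± 1.06 CPM (adjusted p = 1.6e-12, edgeR).

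Among 13 tested genes that trim the chains or release glypicans, 2 were called higher and 2 lower with Dox at day 5 (4.74% of all genes were called), with a list median of 0.03. At day 0 edgeR called 0 of them (2 at an unadjusted p under 0.05) and at day 3 also 0 (0 unadjusted), as did DESeq2 and limma-voom. At day 5 edgeR gave 6 an unadjusted p under 0.05, DESeq2 and the replicate block called 5 each, and limma-voom called 4. Sulf2 fell from 300 ± 11.2 to 229 ± 8.17 CPM (log2 -0.39 ± 0.05, adjusted p = 0.00011, edgeR). Its relative Sulf1 rose from 27.9 ± 1.66 to 42 ± 2.96 CPM (log2 0.59, adjusted p = 0.029, edgeR). Gdpd5, a phosphodiesterase known to cleave glypican anchors, fell from 37.5 ± 1.42 to 26.1 ± 0.524 CPM (log2 -0.52, adjusted p = 0.016, edgeR). Gdpd2, of the same enzyme family, rose from 11.3 ± 0.263 to 24.9 ± 3.24 CPM (log2 1.13, adjusted p = 0.0036, edgeR). The Sulf2 and Gdpd2 calls held in every alternative fit run. The Sulf1 call was lost without any one of the 6 day 5 libraries (adjusted p = 0.053 to 0.12). The Gdpd5 call was lost without any one of them but control replicate 2 (adjusted p = 0.06 to 0.091). Notum, which was placed in this list, went from 84.7 ± 9.72 CPM at day 0 to 20.5 ± 3.06 CPM at day 3 and 0.409 ± 0.114 CPM at day 5 in control (adjusted p = 5.1e-12 and 1.1e-14, edgeR).

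Of the 10 other heparan sulfate proteoglycans 2 fell with Dox at day 5 and 0 rose (4.74% of all genes were called), with a list median of -0.15. DESeq2, limma-voom and the replicate block each called 3. Nrp1, a receptor for semaphorins and VEGF, fell from 11.1 ± 1.87 to 5.45 ± 1.59 CPM (log2 -1.02, adjusted p = 0.023, edgeR). Syndecan 1, Sdc1, fell from 157 ± 3.51 to 138 ± 4.67 CPM (log2 -0.18, adjusted p = 0.028, edgeR). Without single day 5 libraries the Nrp1 call was lost in 4 of 6 fits (control replicate 1 or 3, Dox replicate 2 or 3; adjusted p = 0.085 to 0.15) and the Sdc1 call in 5 of 6 (all but control replicate 1; adjusted p = 0.067 to 0.13), and Sdc1 also without the filter (0.13). At day 0 Sdc1 was higher with Dox (20 ± 0.687 to 25 ± 1.41 CPM, adjusted p = 0.0055, edgeR; 1.04% of all genes were called), a call lost when day 0 was fitted without the other days (0.74).

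Of 27 tested ligands, receptors and partners of glypicans, 4 fell with Dox at day 5 and 0 rose (4.74% of all genes were called), with a list median of -0.07, and 3 of the 4 are described here. At day 0 edgeR called 0 of them (3 at an unadjusted p under 0.05) and at day 3 also 0 (1 unadjusted), as did DESeq2 and limma-voom. Igf2, a growth factor, fell from 172 ± 4.24 to 108 ± 17.6 CPM (log2 -0.67, adjusted p = 0.0083, edgeR). Wnt5a fell from 12.3 ± 1.12 to 8.12 ± 0.454 CPM (log2 -0.59, adjusted p = 0.029, edgeR), and Cd81, a tetraspanin that binds GPC3, from 160 ± 4.37 to 139 ± 1.72 CPM (log2 -0.2, adjusted p = 0.029, edgeR). The Igf2 call was lost without Dox replicate 2 (0.06) or 3 (0.085). The Wnt5a call was lost without any one day 5 library (0.05 to 0.14). The Cd81 call was lost with library size alone (0.1) and without any one library but control replicate 1 (0.083 to 0.13).

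Of 11 tested Hedgehog and Wnt readout genes, Gli1 was the 1 called at day 5, where 4.74% of all genes were. Gli1, a transcription factor that Hedgehog signalling induces, fell from 16.9 ± 2.72 to 6.39 ± 1.69 CPM (log2 -1.41 ± 0.14, adjusted p = 1e-05, edgeR), and that call held in every alternative fit run. The list's median at day 5 was -0.07. At day 0 its median was -0.43, beside -0.001 over all genes, and edgeR gave 6 genes an unadjusted p under 0.05. At that day edgeR called 2 of the 11, where 1.04% of all genes were called, and DESeq2 and limma-voom called 1 each. Hhip was higher with Dox at day 0 (log2 1.14, adjusted p = 0.013, edgeR) and Sp5 lower (log2 -1.79, adjusted p = 0.042, edgeR). When day 0 was fitted without the other days, their adjusted p was 0.49 and 0.81. The Hhip call was also lost without Dox replicate 2 (0.065), the library with the high ribosomal RNA share. The Sp5 call was also lost in DESeq2 (0.06), in limma-voom (0.09) and without control replicate 1 (0.16) or 2 (0.11) or Dox replicate 2 (0.15) or 3 (0.066).

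**Figure D3:**
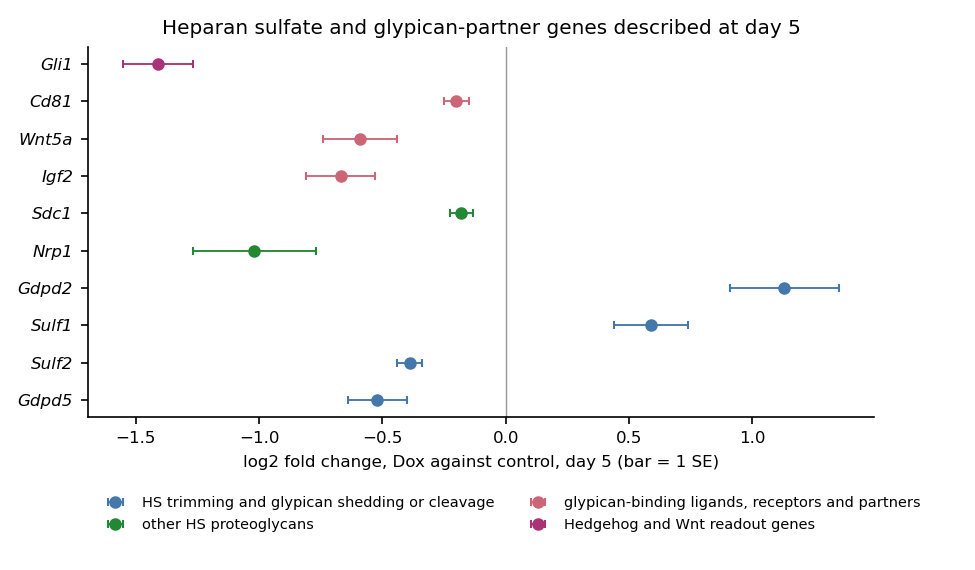
Log2 fold change of Dox against control at day 5 for 10 of the 11 genes of the heparan sulfate, proteoglycan, partner and readout lists past the threshold, coloured by list, with bars of 1 SE. Gdpd2 at 1.13 and Sulf1 at 0.59 are the 2 above 0, and Gli1 at -1.41 is the lowest.

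Marker genes of several cell types also differed between the day 5 arms, where 4.74% of all genes were called. The summed level of 8 presomitic and somite mesoderm markers was 119 to 139 CPM in control and 76.3 to 102 CPM with Dox, with 3 of 7 tested called lower and Msgn1 at 0 in both. Pax1, a sclerotome factor, fell from 4.84 ± 0.271 to 0.547 ± 0.132 CPM (log2 -3.14, adjusted p = 4.4e-07, edgeR), a call that held in every alternative fit run. The others were Foxc2 (log2 -0.66, adjusted p = 0.035, edgeR) and Meox1 (log2 -0.5, adjusted p = 0.029, edgeR), and both of these calls were lost without any of 5 of the 6 day 5 libraries, all but Dox replicate 1. The summed level of 6 neuron markers was 54.7 to 60.3 CPM in control and 75.9 to 103 CPM with Dox, with 3 called higher (Elavl3, Elavl4 and Tubb3) and 1 lower (Neurog2). That of 8 neural progenitor markers was 1450 to 1480 CPM in control and 1310 to 1430 CPM with Dox, with 1 called higher (Pax3) and 3 lower (Olig2, Nkx6-1 and Pax6). The Pax6 call was lost without any one day 5 library but control replicate 1 (adjusted p = 0.071 to 0.11, edgeR). Olig2 had 137 counts in total in control and 18 with Dox. That of 7 definitive endoderm markers was 8.5 to 10.8 CPM in control and 5.43 to 6.51 CPM with Dox. Of 5 tested 2 were called lower (Foxa1 and Foxa2), and Sox17, Epcam and Cldn6 were not called. Lists at lower levels also had sums that did not overlap, where 26.1% of all single genes did not overlap at day 5. Neural crest lay at 1.18 to 1.49 CPM in control and 2.69 to 3.04 CPM with Dox, and endothelium at 2.7 to 4.44 and 4.75 to 5.77 CPM. Visceral endoderm lay at 9.34 to 9.76 and 12.9 to 16.3 CPM and primitive streak at 9.93 to 12 and 8.6 to 8.73 CPM. Surface ectoderm lay at 6.64 to 8.49 and 5.58 to 6.61 CPM. The part of these shifts in the Gpc3 and Gpc2 differences was not tested.

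The tested genes within 1 Mb of Gpc3 were counted because Gpc3 lies 374.2 kb from Hprt, and Hprt was higher in every Dox group. Hprt, a purine salvage enzyme, went from 20.5 ± 0.594 CPM in day 5 control to 199 ± 15.6 CPM in day 5 Dox (log2 3.28, adjusted p = 1.4e-14, edgeR). The labels do not say where the knock-in lies, so counts from the Hprt gene and from a construct there cannot be told apart. Of the 15 neighbours tested, Hprt was the 1 called at day 5. Gpc4 is 1 of the 15, and as a member its day 5 difference (log2 0.23) is described without a test. The median of the 14 others was 0.18, above the median of 0.003 over all genes, while Gpc3 was at -0.99. That median includes Gpc4 and 1700080O16Rik, a gene with no counts at day 5. The nearest on the Hprt side were the noncoding gene Kis2 at 128.6 kb (0.215 ± 0.0631 CPM in control and 0.523 ± 0.203 CPM with Dox, adjusted p = 0.14, edgeR), the pseudogene Gm14586 (adjusted p = 0.83, edgeR), Ccdc160 at 177.2 kb (18.7 ± 0.738 and 19.9 ± 1.24 CPM, adjusted p = 0.78, edgeR) and the pseudogene Rps2-ps13 (adjusted p = 0.92, edgeR). Phf6, a chromatin protein gene at 298.3 kb, had 157 ± 11.3 CPM in control and 182 ± 1.19 CPM with Dox (adjusted p = 0.1, edgeR), and with the replicate block its adjusted p was 0.023. At day 0 Hprt was called higher and Ccdc160 lower (14.2 ± 1.65 to 8.76 ± 1.5 CPM, log2 -0.7, adjusted p = 0.0055, edgeR), and the median of the 14 others was -0.24. At day 3 Hprt was the 1 called and the median of the others was 0.1.

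**Figure D4:**
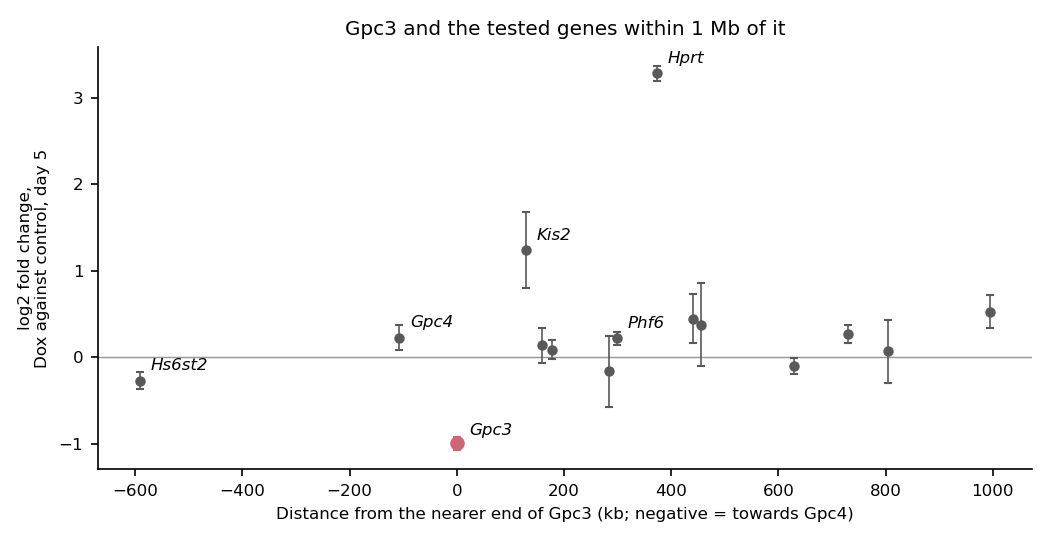
Log2 fold change of Dox against control at day 5 (bars, 1 SE) for Gpc3 (red, at 0 kb) and 14 of its 15 tested neighbours, by distance from the nearer end of Gpc3 in kb. The gene left out had no counts at day 5. Hprt, at 374.2 kb, is at 3.28, and Gpc3 at -0.99 is the lowest point.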

How the data were processed

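Poly(A) RNA from 18 libraries was sequenced with a stranded kit, per the labels' protocols. GRCm38, RSEM 1.3.3, STAR 2.7.10a, DESeq2 1.38.2 and Trimmomatic are listed, without role or order, per the submitters' processing notes; the annotation release and strand setting are not given in the sources used here. The authors' deposited gene tables hold RSEM expected counts (estimated counts, 6.54 to 7.49% not whole), TPM, FPKM, which was not used, and transcript lengths. Gene IDs matched GENCODE M21 symbols for 55141 of 55401.

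Expected counts were rounded and modelled in edgeR 4.0.16 (R 4.3.3; quasi-likelihood F test, TMM, filterByExpr with minimum count 10 and minimum total 15, 17795 genes) in one fit of all libraries, with a mean per group and 12 residual degrees of freedom, checked on simulated data. A gene was called at p under 0.05 after Benjamini-Hochberg adjustment across the whole table. Levels between genes were compared in deposited TPM. DESeq2 1.42.0, limma-voom (limma 3.58.1), other scalings and filters, a replicate block and leaving out single libraries were alternatives.

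The members and gene lists were chosen with earlier results of these data known. All members, Rnaseh1 (the check of the labels) and Hprt are named. From each list up to 4 genes past the threshold with the largest change, or the 2 most abundant where none passed, could be named in each contrast, and fewer were printed; 1 gene of the partner list is not reported here. The 3 most similar genes per member were taken among genes of at least 5 mean CPM, and up to 6 nearest neighbours were named. Counting floors (3 counts) cover counting error only. Replicate numbers are the labels' batch, so they were read as pairing control and Dox libraries, though the main fit had no batch term. Deviations from group means of same-numbered libraries correlated at 0.206 to 0.331 at day 0, 0.01 to 0.036 at day 3 and 0.022 to 0.051 at day 5. Those of libraries with other numbers correlated at -0.252 to 0.055, -0.043 to 0.02 and -0.057 to 0.02. The pairing was thus clear at day 0 and slight at days 3 and 5. Whether replicates came from separate cultures is not stated, so p-values reflect only the spread among these libraries, which may be technical. Pairs of replicates had a median chi-square per gene of 0.751 to 4.824, and none were taken as the same library.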

Additional observations from a re-analysis of the deposited data

How the results depend on the processing

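Of 636 alternative values for the glypicans, their counts and levels, 601 were labelled as kept. For a tested value that meant the same direction and side of the threshold, and for a count, staying within 1.5 times it. For a value described without a test it meant a shift within the combined SD of the groups' log2 CPM, so a small value could change sign and still be kept. Such counts still moved by 1, between 5 and 6 members called from day 0 to day 3 and between 3 and 4 from day 3 to day 5. These counts and the 636 values include Gpc5, although its changes between days were built into its selection. With a filter of at least 1 CPM in 3 libraries Gpc5 was not tested, and 5 of 5 members were called from day 0 to day 3. For 2179 alternatives of the named list genes that had passed, 2079 kept their direction and passed again, and 100 fell short of the threshold. The fits leaving out a library and other tools were added for these genes after the data were seen. With a replicate block no member's call changed (Gpc3 at day 5, log2 -0.99), and 2 neighbours of Gpc3 were called at day 5 against 1, and 3 in DESeq2 (Hprt, Phf6 and Hs6st2). With no filter 1 member was called at day 0 (Gpc1, log2 0.27), and leaving out single libraries gave 0 to 1. Small differences turned sign when single libraries were left out. At day 0 Gpc2 ran from -0.06 to 0.05, Gpc4 from -0.07 to 0.17 and Gpc6 from -0.08 to 0.33, and at day 3 Gpc2 ran from -0.05 to 0.03. For the day 3 minus day 0 difference Gpc2 ran from -0.07 to 0.04, Gpc4 from -0.08 to 0.17 and Gpc5 from -0.31 to 1.18. At day 5, described without a test, Gpc5 ran from -0.33 to 0.59 and Gpc6 from -0.13 to 0.15. The causes were not tested.

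Calls over all genes moved more. At day 0 they were 185, against 313 with the block, 504 in DESeq2, 549 with no filter, 3 from day 0 libraries alone and 76 to 412 without single libraries. At day 3 they were 3, against 5 in DESeq2, 25 with no filter and 12 from that day alone. At day 5 they were 843, against 1286 in DESeq2, 1628 from that day alone and 410 to 732 without single libraries. For the day 3 minus day 0 difference they were 10, against 35 with the block, 115 in DESeq2, 25 in limma-voom, 203 with no filter, 3 from those days alone and 3 to 52 without single libraries; with library size alone 7 were higher and 5 lower, against 7 and 3. Depth limits Gpc5, at 0 to 20 counts a library, to the statement that it was near the detection limit.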
